A study of Bos taurus with 8 samples.

Results

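The 29 genes described here make cholesterol and fatty acids or control that synthesis, and were taken by gene symbol from a list written for this work. The rule holds no measured value, but earlier results of these data were known when these genes were chosen. Of them, 28 have a row in the count table of 33132 genes, all 28 passed the filter on low counts, and STARD4 is not analysed here. They comprise 18 enzymes of the mevalonate and sterol pathway (called sterol enzymes here, GGPS1 of a side branch included), 5 regulators (INSIG1, INSIG2, SREBF1, SREBF2 and SCAP) and 5 enzymes of fatty acid synthesis and modification. RNA was sequenced from rumen tissue, the fermentation chamber of the ruminant stomach, of 4 adult steers and of 4 neonatal male calves, all angus crosses, with a library for each animal. Steers are castrated and calves are labelled male, so age and castration cannot be told apart, and the labels give neither exact ages nor feed. The study asks which genes and regulators accompany growth of the rumen after birth.

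Cholesterol is built from acetyl-CoA through mevalonate, squalene and lanosterol, and fatty acids are built from the same acetyl-CoA through malonyl-CoA. The transcription factors SREBP2 (gene SREBF2) and SREBP1 (gene SREBF1) switch on the sterol and the fatty acid genes. SCAP escorts both factors out of the endoplasmic reticulum when membrane cholesterol is low, and the INSIG proteins hold them back when it is plentiful. In keratinized epithelia such as the rumen lining, cholesterol and long fatty acids also go into the barrier lipids between cells.

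Steer libraries held 42322022 to 54449684 counts and calf libraries 45779990 to 49628428. Levels are given as CPM, the deposited count of a gene relative to its library total, with totals scaled by TMM, a method that corrects for a few very abundant genes. Each gene was tested over all 16326 genes that passed the filter, with edgeR's quasi-likelihood test and Benjamini-Hochberg adjustment, and a gene with adjusted p under 0.05 is said to have changed. By that rule 16.9% of all genes tested changed, 9.16% being lower and 7.7% higher in steers. Of all calls 45.7% were higher, or 34.9% with scaling by library size alone, which moved the median log2 change of all genes by -0.11. The basal keratinocyte marker KRT5 was at 2646 to 3932 CPM in steers and 2929 to 3446 CPM in calves, and the smooth muscle marker DES at 4482 to 54578 CPM in steers and 1132 to 4528 CPM in calves. The libraries thus hold both lining and muscle, and in such bulk tissue fewer cells of a type and less RNA per cell cannot be told apart. Of 8 basal keratinocyte markers 2 rose (25%) and 1 fell (12.5%), with a mean log2 CPM of 9.24 in steers and 9.03 in calves. KRT14 and DST rose, with KRT14 at 1983 to 3244 CPM in steers and 447 to 1546 CPM in calves. COL17A1 fell, at 293 to 455 CPM in steers and 950 to 1600 CPM in calves. KRT15, not called, had means of 4670 CPM in steers and 8653 CPM in calves. Summed over the 10 smooth muscle markers, steers 1 to 3 were above every other library, with levels from 54262 to 111488 CPM, against 11488 CPM in steer 4 and 6463 to 18724 CPM in calves. Of these markers 5 rose and 1 fell: ACTA2, a smooth muscle actin, was at 57.8 to 90.7 CPM in steers and 834 to 1697 CPM in calves (log2 change -4.10, adjusted p = 0.000121). Other cell type lists also differed in mean log2 CPM, with 5.95 in steers and 6.95 in calves for 6 fibroblast markers, 4.17 and 5.01 in the same order for 6 endothelial markers, 1.02 and 2.96 for 5 striated muscle markers, and 2.16 and 0.75 for 8 immune markers. Members of the last 2 lists did not all go the way of the mean. Of the striated muscle markers 3 fell and 1 rose: ACTA1, at means of 18.2 CPM in steers and 3.53 CPM in calves. Of the immune markers 5 rose and 1 fell: CD14, at means of 15.3 CPM in steers and 59.3 CPM in calves. The part of these cell types in the levels given here was not tested.

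Of the 28 genes, 6 fell in steers (21.4%) and none rose, where 9.16% of all genes tested were lower and 7.7% higher, 16.9% in all. The count rests on single libraries: without steer 3, calf 3 or calf 4 it was 2 of 28 (7.14%), where 6.86%, 7.16% and 6.88% of all genes tested were lower in those fits. The 6 were FASN, ACACA and SCD of fatty acid synthesis, CYP51A1 and DHCR7 of sterol synthesis, and SCAP. The median log2 change was -1.23 over the 5 fatty acid enzymes and -0.52 over the 18 sterol enzymes, against 0.04 over all genes tested. The log2 change was below 0 in 21 of the 28, and in 47.6% of all genes tested. The levels of steers lay wholly below those of calves in 5 of the 28 (FASN, ACACA, SCD, SCAP and SREBF1), a pattern found in 12.8% of all genes tested. In none of the 28 did they lie wholly above, as they did in 10.5% of all genes tested.

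**Figure D1:**
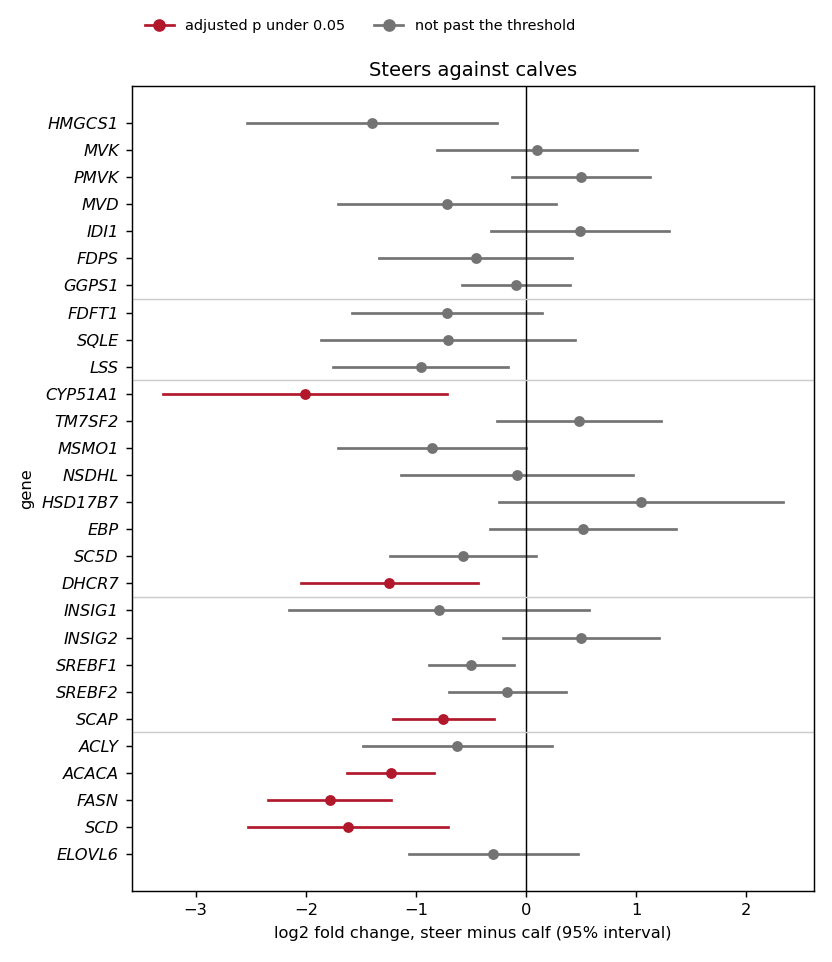
Log2 fold change of each gene, steer minus calf, with its 95% interval before adjustment. The 6 red genes passed at an adjusted p under 0.05 and all lie left of 0; the interval of FASN runs from -2.34 to -1.22 and that of GGPS1 from -0.58 to 0.40.

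FASN, the fatty acid synthase (chromosome 19, 50776167 to 50794939 on the plus strand, in the count table's own coordinates, with no build named), was at 49.9, 59.4, 88.5 and 58.9 CPM in steers 1 to 4. In calves 1 to 4 it was at 241, 195, 277 and 171 CPM. The lowest calf thus held nearly double the highest steer, and the groups did not overlap. FASN fell to 64.2 ± 16.8 CPM in steers, against 220.8 ± 47.4 CPM in calves (SD, n = 4 each), a log2 change of -1.78 ± 0.25 (SE, adjusted p = 0.00175).

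ACACA, which makes the malonyl-CoA that FASN consumes (chromosome 19, 13439533 to 13726365, minus strand), was at 31.7, 35.4, 32.1 and 34.4 CPM in steers. It was at 87.7, 60.9, 83.0 and 81.8 CPM in calves. The steers stood within 4 CPM of each other, and calf 2 was the lowest calf but still above every steer. The log2 change was -1.23 ± 0.18, with an adjusted p of 0.00190 in edgeR. FASN and ACACA kept their calls under each of the 22 alternatives run, with log2 changes of -1.98 to -1.66 for FASN and -1.35 to -1.16 for ACACA.

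SCD, the desaturase that turns stearate into oleate (chromosome 26, 21263976 to 21279185, plus strand), was at 21.5, 9.30, 17.5 and 32.02 CPM in steers and at 43.4, 39.0, 65.6 and 98.8 CPM in calves. The groups did not overlap, but calf 2 and steer 4 came within 7 CPM of each other, and calf 4 stood well above the other calves. SCD fell by 1.62 ± 0.41 on the log2 scale (adjusted p = 0.0239). The call ended without steer 1, steer 3, calf 3 or calf 4 (log2 changes with 1 library left out -1.93 to -1.29). It also ended with the smooth muscle marker level as a covariate, at a log2 change of -0.90.

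The other 2 fatty acid genes did not pass. ACLY, which frees acetyl-CoA from citrate in the cytosol, was at 40.2 ± 22.5 CPM in steers and 62.0 ± 20.8 CPM in calves (adjusted p = 0.302), with steer 4 at 72.9 CPM against 22.6 to 35.8 CPM in the other steers. Without steer 4 its log2 change was -1.08 and passed (adjusted p = 0.0364). Steer 4 is set apart here by its level of ACLY itself, so that call is no separate support. ELOVL6, which lengthens palmitate, was at 22.9, 11.5, 10.9 and 30.0 CPM in steers and 17.4, 24.5, 21.9 and 28.97 CPM in calves. Its groups overlapped widely, and the 95% interval of its log2 change, -1.07 to 0.47, takes in both a loss and a gain.

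**Figure D2:**
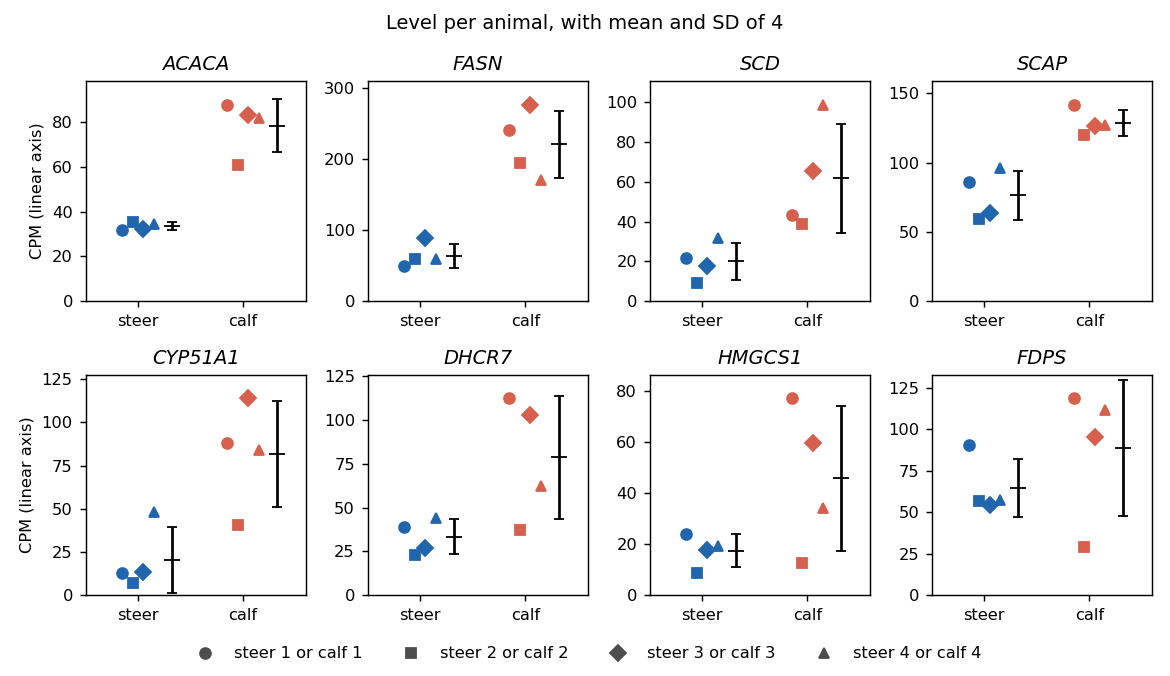
CPM of 8 genes on linear axes from 0, a point for each animal and a bar for the mean and SD of 4. Steers stand left and calves right, and nothing in the labels pairs animals of the same number. FASN, ACACA, SCD and SCAP separate the groups. In CYP51A1, DHCR7 and HMGCS1 calf 2 (a square) lies among the steers, and in FDPS it lies below every steer.

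Adipocytes also make fatty acids, and their markers varied among the calves. Of 10 adipocyte markers tested 1 (RBP4) rose and 2 (ADIPOQ and LIPE) fell. ADIPOQ, the adipocyte hormone adiponectin, was at 0.245 to 0.445 CPM in steers, at 41.7 and 45.9 CPM in calves 2 and 4, and at 0.0932 and 1.35 CPM in calves 1 and 3. FASN was at 241 and 277 CPM in calves 1 and 3 and at 195 and 171 CPM in calves 2 and 4, and the part of adipocytes in it was not tested beyond the covariate. SCD was highest in calf 4, which also had the most ADIPOQ. PLIN1, which coats the fat droplet, was at 28.8 and 25.4 CPM in calves 2 and 4, against 2.54 and 3.45 CPM in calves 1 and 3, and the part of such cells in the SCD level was not tested. Not all markers went this way: 7 of the 10 had a log2 change below 0 and 3 (RBP4, FABP4 and PLIN4) above 0. FABP4 was at 430, 21.6, 121 and 171 CPM in steers and 2.05, 57.1, 10.2 and 394 CPM in calves. PLIN4 was at 99.8 ± 63.9 CPM in steers and 45.7 ± 22.7 CPM in calves. Among calves, CIDEA was lowest in calf 2 (13.9 CPM) and highest in calf 3 (128 CPM). Summed over the 10 markers, steers had 380 to 725 CPM and calves 121 to 784 CPM. With the mean of these markers as a covariate FASN, ACACA and SCD kept their calls.

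Sterol synthesis gave a less even picture. In the mevalonate steps 0 of 7 enzymes were called by edgeR, with log2 changes from -1.40 to 0.50; 1 of them, HMGCS1, had an unadjusted p under 0.05, and it alone was called by DESeq2. HMGCS1, the synthase at the head of the pathway (chromosome 20, 31431132 to 31456871), was at 24.0, 8.57, 17.8 and 19.1 CPM in steers. It was at 77.1, 12.5, 59.5 and 34.2 CPM in calves. Calf 2 lay among the steers and the other 3 calves above all of them. The log2 change was -1.40 ± 0.51 (adjusted p = 0.0891), and -1.72 without calf 2 (adjusted p = 0.0195). A transcript that the count table names TRH covers 87.7% of the HMGCS1 span, and reads that fall in 2 genes were not counted, so its level rests on the small unshared part.

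The kinases MVK and PMVK, the decarboxylase MVD, the isomerase IDI1 and the prenyl synthases FDPS and GGPS1 follow HMGCS1 in the pathway. MVK was at 115, 113, 49.9 and 44.8 CPM in steers and 93.9, 34.1, 82.6 and 90.8 CPM in calves. Here 2 steers stood above every calf and the other 2 below all calves but calf 2, so that the direction changed with the library left out (log2 changes -0.15 to 0.30). PMVK was at 144.6 ± 49.3 CPM in steers and 102.4 ± 23.7 CPM in calves, and IDI1 at 76.5 ± 21.7 and 54.5 ± 25.6 CPM in the same order. Both means were higher in steers, with adjusted p of 0.262 and 0.395. MVD was at 76.2 ± 32.4 CPM in steers and 125.2 ± 61.5 CPM in calves. FDPS, which makes farnesyl diphosphate, was at 90.5, 56.4, 54.0 and 57.1 CPM in steers and 118, 28.8, 95.5 and 112 CPM in calves. Its lowest value of all 8 animals was that of calf 2, and the other 3 calves exceeded every steer. GGPS1, which makes the longer prenyl chain for protein anchors and is counted among the 18 although it lies on a side branch, was at 11.9 ± 2.3 CPM in steers and 12.6 ± 1.6 CPM in calves. Its 95% interval of -0.58 to 0.40 allows at most a modest change in either direction.

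From squalene to lanosterol all 3 enzymes had lower means in steers and none passed. FDFT1, squalene synthase, was at 78.1, 75.8, 68.0 and 46.9 CPM in steers and 165, 39.7, 142 and 95.2 CPM in calves. SQLE, squalene epoxidase, was at 46.5, 13.6, 27.5 and 63.0 CPM in steers and 81.7, 22.6, 94.9 and 47.2 CPM in calves. LSS, which closes the sterol rings, was at 36.8, 23.1, 26.2 and 44.0 CPM in steers and 91.2, 28.1, 76.7 and 57.2 CPM in calves. In each of the 3 genes calf 2 was the lowest calf and overlapped with the steers. The adjusted p-values in edgeR were 0.239 for FDFT1, 0.389 for SQLE and 0.0952 for LSS. FDFT1 and LSS passed without calf 2 (adjusted p = 0.0372 and 0.0227), LSS at a log2 change of -1.21.

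After lanosterol 2 of 8 enzymes fell (25%) and none rose. These were the only calls among the sterol enzymes, 2 of 18 (11.1%), where 9.16% of all genes tested were lower. CYP51A1, the lanosterol demethylase (chromosome 4, 9459763 to 9477007, minus strand), was at 12.7, 6.74, 13.4 and 48.3 CPM in steers and 88.2, 40.4, 114 and 84.2 CPM in calves. Steer 4 was far above the other 3 steers and overlapped with calf 2. The log2 change was -2.01 ± 0.58 (adjusted p = 0.0406), the largest fall of the 28. It was -2.89 without steer 4. DHCR7, which makes cholesterol from the precursor of vitamin D (chromosome 29, 48285090 to 48304832, minus strand), was at 39.1, 23.1, 26.9 and 44.1 CPM in steers and 112, 37.2, 103 and 62.5 CPM in calves. Its log2 change was -1.24 ± 0.36 (adjusted p = 0.0417), and again calf 2 alone overlapped with the steers. Both calls ended when any of steers 1 to 3 or calves 1, 3 and 4 was left out, and with the smooth muscle covariate (log2 changes -1.08 and -0.81). The call of DHCR7 also ended with limma-voom.

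The other 6 enzymes after lanosterol did not share a direction. MSMO1, which helps remove methyl groups, was at 27.9 ± 12.7 CPM in steers and 50.5 ± 19.1 CPM in calves (adjusted p = 0.157). SC5D, a desaturase, was at 22.7 ± 9.5 CPM in steers and 33.9 ± 7.5 CPM in calves (adjusted p = 0.218), and passed without steer 4 at a log2 change of -0.90. Steer 4 had the most SC5D of the steers (36.5 CPM against 14.9 to 20.9 CPM), so that call is no separate support. EBP, the sterol isomerase, was at 86.7, 47.0, 41.5 and 50.9 CPM in steers and 46.7, 15.4, 53.5 and 42.7 CPM in calves. TM7SF2, a sterol reductase, was at 66.7, 39.8, 48.4 and 41.4 CPM in steers and 52.9, 16.2, 33.5 and 37.8 CPM in calves. In EBP and TM7SF2 calf 2 was the lowest of all 8 animals, and the mean of steers was the higher (log2 changes 0.52 and 0.48, adjusted p = 0.391 and 0.359). NSDHL, a sterol dehydrogenase, spread as widely within steers (20.3 to 85.9 CPM) as within calves (25.7 to 77.5 CPM). HSD17B7, whose product reduces a keto group on the way to cholesterol, held 36 to 412 counts per library, and another gene shares 39.9% of its span. It was at 4.10 ± 2.66 CPM in steers and 1.99 ± 1.07 CPM in calves (log2 change 1.04, adjusted p = 0.252).

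Of the 5 regulators tested, SCAP fell and the other 4 did not pass. SCAP (chromosome 22, 52163449 to 52263267, plus strand) was at 86.1, 59.4, 63.8 and 96.1 CPM in steers and 142, 120, 126 and 127 CPM in calves. The groups did not overlap, and the log2 change was -0.75 ± 0.20 (adjusted p = 0.0322). The call ended without steer 2, steer 3, calf 1, calf 3 or calf 4 and with either the smooth muscle or the adipocyte covariate (log2 changes -0.92 to -0.51 over all alternatives). SREBF1 was at 103, 82.4, 107 and 112 CPM in steers and 145, 144, 138 and 142 CPM in calves. Its calves lay within 7 CPM of each other and above every steer, yet its log2 change of -0.50 ± 0.17 missed the threshold with edgeR (adjusted p = 0.0765) and passed with DESeq2 (adjusted p = 0.0384). SREBF2 was at 216, 193, 201 and 250 CPM in steers and 271, 163, 312 and 223 CPM in calves (adjusted p = 0.673), with calf 2 again the lowest animal. The table does not separate the forms made from SREBF1.

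INSIG1, itself a gene that SREBP2 switches on, was at 12.8, 9.02, 18.4 and 43.1 CPM in steers and 42.2, 7.76, 60.3 and 34.1 CPM in calves. Calf 2 was the lowest and steer 4 the second highest of all 8 animals. The log2 change was -0.79 ± 0.61 with all animals (adjusted p = 0.417), -1.13 without calf 2 (adjusted p = 0.163) and -1.42 without steer 4 (adjusted p = 0.115). INSIG2, the relative that does not depend on sterols in the same way, was at 5.30 to 12.2 CPM in steers and 4.60 to 7.39 CPM in calves (adjusted p = 0.321).

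**Figure D3:**
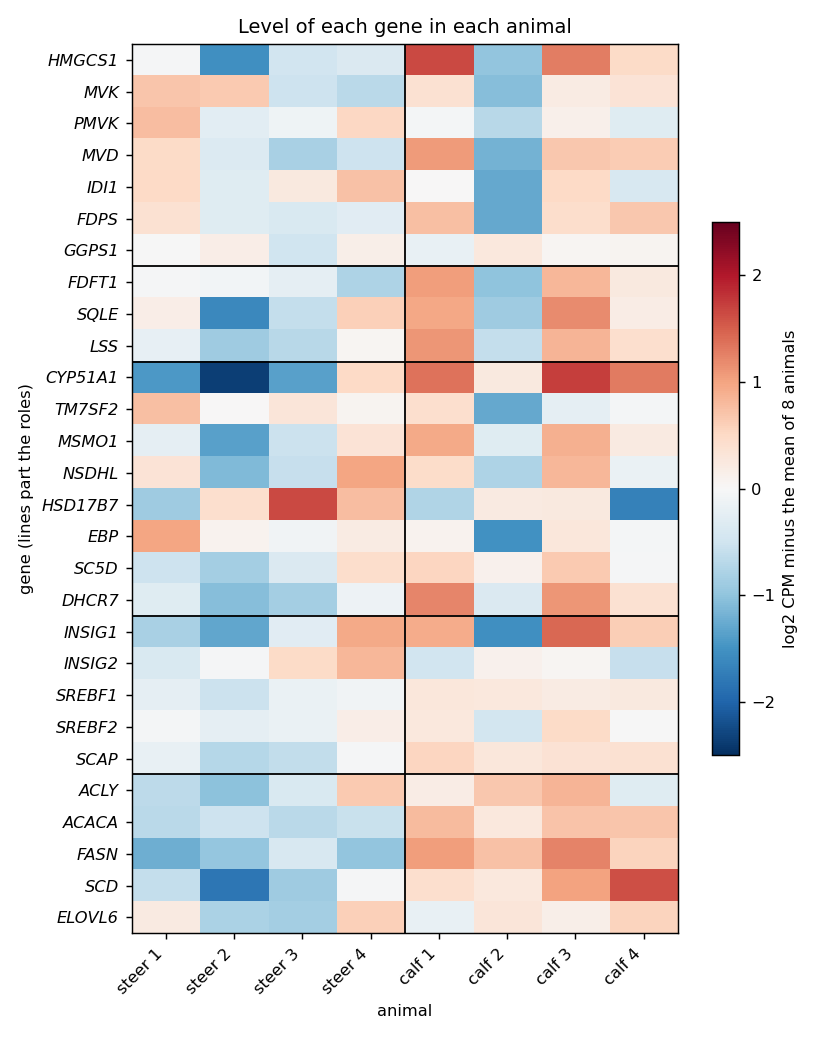
Level of each of the 28 genes in each animal, as log2 CPM minus the mean of the 8 animals; steers are the 4 left columns, calves the 4 right, and lines part the roles. The column of calf 2 is blue in most sterol enzymes and pale red in the 5 fatty acid genes, and steer 4 is redder than the other steers in CYP51A1, NSDHL and INSIG1.

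Calf 2 was low in most sterol enzymes. It was the lowest of 4 calves in 15 of the 18 sterol enzymes (83.3%), where it was the lowest in 31.5% of all genes tested and in 2 of the 5 fatty acid enzymes. Its sterol enzymes had a median of -1.32 log2 units from the mean of the other 3 calves, or 2.49-fold lower, against 0.01 over all genes tested. INSIG1 was 5.68-fold, HMGCS1 4.31-fold, MVD 3.89-fold, FDPS 3.74-fold and FDFT1 3.29-fold lower in calf 2 than in the mean of the other 3. FASN was 1.16-fold lower there, and SREBF1 was at 144 CPM against 138 to 145 CPM in the other calves. Over the 118 genes tested in neighbouring lists, calf 2 was the lowest calf in 34.7% (median -0.01), against 31.5% of all genes tested. It was the lowest in 9 of 15 genes of acetyl-CoA and NADPH supply (median -0.33) and in 8 of 18 further fatty acid genes (median -0.39). In 4 of 7 other steps of sterol synthesis it was the lowest as well (median -0.35). Among 13 genes of SREBP transport, cleavage and turnover it was the lowest in 0 and the highest in 7 (median 0.29). Among 17 genes of dolichol, ubiquinone and protein prenylation it was the lowest in 5 and the highest in 8 (median 0.06). The 3 sterol enzymes in which calf 2 was not the lowest calf were GGPS1, HSD17B7 and SC5D. With library size alone as the scaling, calf 2 was the lowest in 14 of the 18, with a median of -0.94, while over all genes tested its median was 0.38.

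Summed over the 18 sterol enzymes, steers 1 to 4 had 1124, 690, 695 and 975 CPM and calves 1 to 4 had 1466, 513, 1408 and 1060 CPM. Calf 2 was thus below every steer, and calves 1 and 3 were above every steer. Summed over the 5 fatty acid enzymes, steers had 155, 138, 185 and 228 CPM and calves 442, 393, 531 and 418 CPM, so that calf 2 was no exception there. Mean log2 CPM of the sterol enzymes was 5.10 ± 0.35 in steers and 5.45 ± 0.62 in calves, or 5.74 in calves without calf 2. The fatty acid enzymes had 4.90 ± 0.39 in steers and 6.06 ± 0.16 in calves, or 6.10 without calf 2. Without calf 2, 9 genes fell in steers and none rose, where 7.89% of all genes tested were lower in that fit. HMGCS1, FDFT1 and LSS were added to the 6. Calf 2 is set apart here because it was low in these same genes, so the added calls are no separate support.

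**Figure D4:**
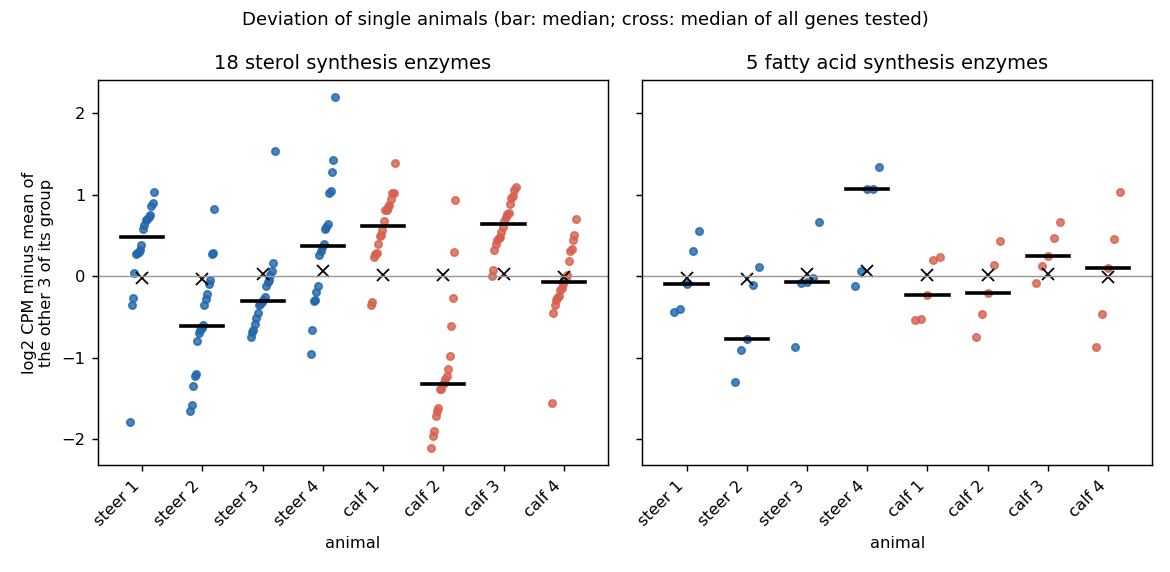
Each point is a gene's log2 CPM in an animal minus the mean of the other 3 animals of its group, for the 18 sterol enzymes (left) and the 5 fatty acid enzymes (right); bars are medians over those genes and crosses medians over all genes tested. The sterol median of calf 2 is -1.32 and its fatty acid median -0.21, and the crosses stay near 0.

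Among steers, steer 2 was the lowest in 11 of the 18 sterol enzymes (29.7% of all genes tested), with a median of -0.62 from the other 3. Steers 1 and 4 were each the highest in 8 of the 18, where steer 1 was the highest in 22.5% and steer 4 in 33.4% of all genes tested. Steer 4 was 2.20 log2 units above the other steers in CYP51A1, 1.43 in NSDHL and 1.28 in SQLE, and 0.95 below them in MVK and 0.65 below in FDFT1. It was also the highest steer in all 5 regulators and in 3 of the 5 fatty acid enzymes.

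Other measures moved with these single animals. The mean of the proliferation markers was lowest in steer 2 among steers and in calf 2 among calves: in log2 CPM it was 5.30, 4.52, 5.08 and 5.10 in steers 1 to 4 and 4.88, 3.54, 5.89 and 4.32 in calves 1 to 4. MKI67, a marker of dividing cells, was at 9.79 CPM in calf 2 against 24.5 to 155.6 CPM in the other calves. Calf 2 was the lowest calf in 6 of the 9 proliferation markers. TOP2A and CCNB1 were lower in calf 4, and TYMS was lower in calf 1. None of the 9 proliferation markers was called between steers and calves by edgeR, and none had an unadjusted p under 0.05. Smooth muscle RNA, summed as above, was highest in steer 2, lowest among steers in steer 4 and, among calves, lowest in calf 3. Calf 2 had the second highest adipocyte level among calves, while its basal keratinocyte mean of 9.02 log2 CPM lay among those of the other calves (8.84 to 9.25). It was the highest calf in all 6 fibroblast markers, with a sum of 4738 CPM against 1625 to 2739 CPM in the other calves, and in 4 of 6 endothelial markers. Immune markers were lowest in steer 2 among steers (5 of 8 markers) and in calf 2 among calves (6 of 8). The part of these markers in the levels of the sterol genes was not tested beyond the covariates: with the proliferation mean as a covariate 8 of the 28 genes fell, HMGCS1 and LSS being added, where 8.56% of all genes tested were lower. With the smooth muscle mean 2 fell, FASN and ACACA, and this share of 7.14% was below the 8.01% of all genes tested in that fit.

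**Figure D5:**
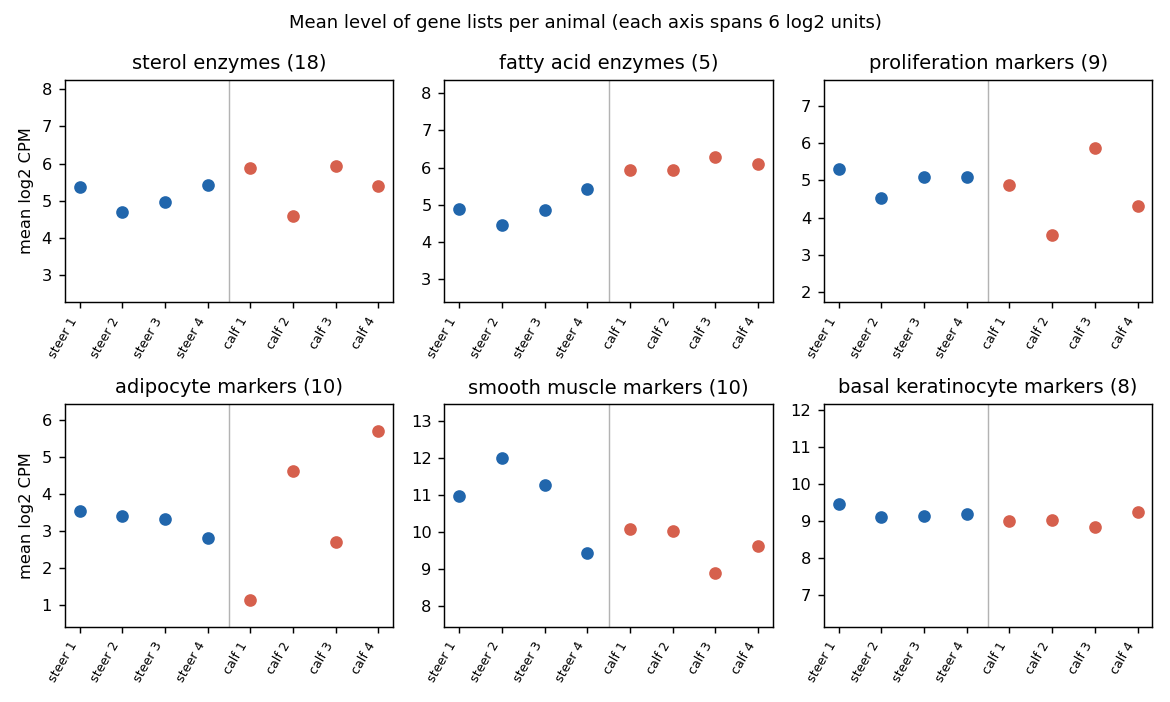
Mean log2 CPM of 6 gene lists in each animal, steers left and calves right of the line, with every axis spanning 6 log2 units. Sterol enzymes and proliferation markers both have calf 2 as the lowest animal (4.59 and 3.54), fatty acid enzymes separate the groups, and smooth muscle markers are high in steers 1 to 3.

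Genes next to the pathway were read from lists chosen alongside the 28, and their counts stand against 9.16% lower and 7.7% higher among all genes tested. Among 7 helpers and other steps of sterol synthesis tested, POR fell and none rose. POR, the reductase that passes electrons to CYP51A1 and SQLE, was at 41.0, 30.1, 28.7 and 42.1 CPM in steers and 88.3, 95.5, 105 and 93.5 CPM in calves, a log2 change of -1.43 ± 0.19 (adjusted p = 0.00139). Calf 2 was not low in POR. ACAT2, the cytosolic thiolase that starts the pathway, was at 28.6 ± 8.0 CPM in steers and 27.2 ± 10.5 CPM in calves (adjusted p = 0.910), and 15.8 CPM in calf 2 was the lowest value of all.

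Of 13 genes of SREBP transport, cleavage and turnover, UBE2G2 rose and none fell. UBE2G2 is a ubiquitin-conjugating enzyme of protein disposal from the endoplasmic reticulum. It was at 123, 227, 146 and 79.5 CPM in steers and 56.1 to 58.3 CPM in calves (log2 change 1.34 ± 0.29, adjusted p = 0.0130). In UBE2G2 the steers stood in the order of their mean smooth muscle marker level. Calves 1, 2 and 4 had a higher mean marker level than steer 4 but less UBE2G2. The part of muscle in the UBE2G2 level was not tested. The proteases that release SREBP from the membrane did not pass: MBTPS1 was at 58.2 ± 11.7 CPM in steers and 72.7 ± 12.4 CPM in calves, and MBTPS2 at 5.55 ± 1.40 CPM in steers and 5.34 ± 0.43 CPM in calves.

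In the list for cholesterol uptake and transport inside the cell, 1 of 16 rose (6.25%) and 3 fell (18.8%), against 7.7% and 9.16% of all genes tested. SCARB1, a receptor for high-density lipoprotein, was at 8.05, 8.96, 16.2 and 8.73 CPM in steers and 35.6, 35.03, 42.0 and 48.0 CPM in calves, and fell by 1.94 ± 0.27 on the log2 scale (adjusted p = 0.00153). The lipoprotein receptor LRP8 fell by 1.61 ± 0.31 and the sterol carrier GRAMD1B by 1.08 ± 0.28. LIPA, the lysosomal lipase that frees cholesterol from lipoproteins taken up, was at 21.7, 11.5, 14.8 and 14.4 CPM in steers and 5.96, 3.95, 8.88 and 7.86 CPM in calves and rose by 1.23 ± 0.31 (adjusted p = 0.0232). In all 4 the groups did not overlap.

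In the list for cholesterol export and oxysterols, 1 of 14 rose (7.14%) and 2 fell (14.3%), against 7.7% and 9.16% of all genes tested. ABCG1, a cholesterol exporter, was at 1.57 ± 0.40 CPM in steers and 9.82 ± 5.81 CPM in calves (log2 change -2.65 ± 0.53, adjusted p = 0.00879). CYP27A1, which hydroxylates the cholesterol side chain, was at 9.10, 24.1, 11.2 and 8.28 CPM in steers and 121, 24.7, 55.2 and 57.1 CPM in calves, and fell by 2.29 ± 0.51 (adjusted p = 0.0137). Its lowest calf, calf 2, stood just above the highest steer. ABCG4, a relative of ABCG1, rose by 1.75 ± 0.52 but stayed at 2.65 ± 1.43 CPM in steers and 0.783 ± 0.388 CPM in calves.

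Both pathways draw on acetyl-CoA and on NADPH, their reducing agent. Of 15 genes that supply them 3 rose (20%) and 1 fell (6.67%), against 7.7% and 9.16% of all genes tested. ME1, the malic enzyme that makes NADPH, was at 116, 112, 185 and 193 CPM in steers and 25.5, 21.2, 51.9 and 38.7 CPM in calves, and rose by 2.14 ± 0.33 on the log2 scale (adjusted p = 0.00274). ACSS2, which activates acetate in the cytosol, was at 80.2, 73.9, 64.8 and 60.2 CPM in steers and 33.3, 17.4, 35.7 and 48.4 CPM in calves, and rose by 1.049 ± 0.285 (adjusted p = 0.0322). Neither gene's groups overlapped, and calf 2 was the lowest animal in both. ACSS1, its mitochondrial counterpart, was at 99.1, 314.5, 171.7 and 43.2 CPM in steers and 34.5, 50.6, 26.3 and 29.03 CPM in calves, and rose by 2.16 ± 0.53 on the log2 scale. Steer 4 was below calf 2, so the groups overlapped, and the steers stood in the order of their mean smooth muscle marker level, whose part was not tested. THRSP, a regulator of fat synthesis, was at 0.682 ± 0.144 CPM in steers and 6.13 ± 6.02 CPM in calves and fell by 3.16 ± 0.63, with 15.1 CPM in calf 4.

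Of 18 further genes of fatty acid elongation and desaturation, 4 fell (22.2%, against 9.16% of all genes tested) and none rose. ELOVL7, an elongase of long fatty acids, was at 0.100, 0.0557, 0.633 and 0.736 CPM in steers and 18.6, 8.63, 50.5 and 5.06 CPM in calves (log2 change -5.69 ± 0.97, adjusted p = 0.00444). ELOVL4, which makes the very long chains of barrier lipids, was at 0.389 ± 0.411 CPM in steers and 10.9 ± 8.8 CPM in calves (log2 change -4.75 ± 0.88, adjusted p = 0.00622). With so few counts in steers 1 and 2 the sizes of these 2 changes are uncertain. ELOVL5, an elongase of polyunsaturated fatty acids, fell by 1.46 ± 0.31, and SCD5, a desaturase related to SCD, by 2.35 ± 0.51. ACACB, the carboxylase that regulates fatty acid oxidation, was at 2.73 ± 2.03 CPM in steers and 2.78 ± 1.65 CPM in calves (adjusted p = 0.982), and the 95% interval of its log2 change ran from -1.47 to 1.41.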

How the data were processed

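Whole-number counts per gene name were deposited for 8 rumen libraries. Per the submitters' processing notes, Trimmomatic 0.39, STAR 2.7.11a, featureCounts 2.0.2 and DESeq2 1.42.0 were used. Per the file headers, reads were counted over entire transcript spans grouped by gene name, without a strand setting, in paired mode but counting mates singly, and reads shared by genes were left out. Intronic reads therefore count. Neither a build nor an annotation release is named there. The dUTP kit marks strand, but the counts do not use it.

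Here edgeR 4.0.16 in R 4.3.3 (filterByExpr, TMM, robust quasi-likelihood F test) was fitted to all 16326 genes passing the filter, and a Benjamini-Hochberg adjusted p under 0.05 made a call. SE is the absolute log2 change over the square root of F. Log2 CPM used a prior count of 2. Intervals are 95% and unadjusted. The procedure was tested on simulated data. Alternatives used DESeq2 1.42.0, limma 3.58.1 (voom), other scalings and filters, marker means as covariates, and left-out libraries. The proliferation covariate was added after seeing the data.

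Members and lists were chosen with earlier results of these data known. From each neighbouring list up to 3 calls per direction were named by smallest adjusted p, plus ACAT2, ACACB, MBTPS1 and MBTPS2; SCD5 was added after its values were seen. A few genes of these lists are not reported here. ERG28 was matched by an older symbol from the ARS-UCD2.0 gene table, which also gave chromosome numbers. No sequences are given. Libraries of a group differed beyond sampling noise (smallest chi-square per degree of freedom 105.5). Nothing in the labels pairs steers with calves of the same number.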

Additional observations from a re-analysis of the deposited data

Results flagged for a closer look

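In 2 of 56 sets of 4 animals (28 genes in 2 groups), 1 animal lay further from the rest than the 95% limit of a Dixon test allows, and chance gives about 1 in 20. CYP51A1 was at 48.3 CPM in steer 4, against 6.74 to 13.4 CPM in the other steers. FDPS was at 90.5 CPM in steer 1, against 54.0 to 57.1 CPM in the other steers. Calf 2 was within the limit in each single gene; MVK came nearest, at a ratio of 0.811 (34.1 CPM against 82.6 to 93.9 CPM).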

How the results depend on the processing

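FASN and ACACA kept their calls in all 22 alternatives, and none of the 28 genes was called higher in any. The number of genes lower in steers was 6, and 2 to 9 with 1 library left out: 3, 3, 2 and 8 without steers 1 to 4, and 3, 9, 2 and 2 without calves 1 to 4. Lower shares over all genes ran from 6.17% to 10.7% in those fits. It was 12 (9.72% over all genes) without calf 2 and steer 4, a pair chosen because of their levels in these genes, and 2 with the smooth muscle covariate (8.01% over all genes), where the fatty acid median was -0.90. It was 8 with DESeq2 (11.5% over all genes) and with the proliferation covariate (8.56%). It was 5 with limma-voom (DHCR7 lost, 9.98% over all genes) and with the adipocyte covariate (7.93%). With the other scalings and filters it was 6 (6.71% to 9.6% over all genes). With a replicate block 5 genes were lower (HMGCS1 gained, DHCR7 and SCAP lost), where 6.41% of all genes tested were. The fatty acid median was then -1.22, with 1831 calls over all genes against 2752. Same-numbered animals correlated at -0.27 to 0.20, and nothing in the labels pairs them. Directions that turned, all of genes without a call, were MVK at -0.028 by library size alone and, under the smooth muscle covariate, MVK at -0.36, SQLE at 0.14, NSDHL at 0.77, INSIG1 at 0.19, SREBF2 at 0.10 and ELOVL6 at 0.21. With libraries left out MVK ran from -0.15 to 0.30, GGPS1 from -0.15 to 0.040 and NSDHL from -0.75 to 0.20. The cause was not tested. With 4 animals a group, intervals of most sterol genes take in both directions. The promoter motif search was not run.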

Other observations

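Of 17 genes of dolichol, ubiquinone and protein prenylation, PDSS2 rose (5.88%, against 7.7% of all genes tested) and FNTB fell (5.88%, against 9.16%). PDSS2, which helps build the ubiquinone side chain, was at 12.6, 15.8, 17.3 and 16.6 CPM in steers and 7.01, 8.77, 7.91 and 7.53 CPM in calves (log2 change 0.99 ± 0.20, adjusted p = 0.00895 in edgeR). FNTB, a subunit of protein farnesyltransferase, was at 11.5 ± 1.2 CPM in steers and 20.3 ± 3.3 CPM in calves (log2 change -0.82 ± 0.20, adjusted p = 0.0206). Neither gene's groups overlapped.

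Of 18 genes that activate fatty acids or build them into glycerolipids, 1 rose (5.56%) and 3 fell (16.7%), against 7.7% and 9.16% of all genes tested. DGAT2, which makes the last bond of triglyceride, was at 2.60, 1.95, 1.68 and 2.07 CPM in steers and 6.66, 49.0, 26.9 and 153 CPM in calves (log2 change -4.83 ± 0.83, adjusted p = 0.00459). Its highest calves were calves 4 and 2, which also had the most ADIPOQ, and the part of adipocytes in it was not tested. LPIN2, a phosphatidate phosphatase, was at 14.5 ± 5.6 CPM in steers and 62.1 ± 29.7 CPM in calves and fell by 2.10 ± 0.40 (adjusted p = 0.00693). GPAT2, an acyltransferase, also fell (adjusted p = 0.0220). ACSL6, an acyl-CoA synthetase, rose by 2.08 ± 0.46 and stayed below 1.1 CPM in every steer.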
